A study of Mus musculus with 2 samples.

Results

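The matrix metalloproteinases are zinc-dependent enzymes that cut the proteins of the extracellular matrix. The arrays read 18193 named genes, of which 10 form the group described here: Mmp2, Mmp3, Mmp9, Mmp10, Mmp11, Mmp13, Mmp14, Mmp16, Mmp19 and Mmp23. They were taken by name, with earlier results of these data known, and 19 probe sets carry one of these symbols as their single gene. A probe set is the group of short oligonucleotides that reads out 1 transcript or a set of closely related transcripts. The samples were cultured chondrocytes, the cells that make and maintain cartilage, from ribs of mice aged 5 days with a strain label that names C57BL/6 and CBA. One array held RNA from miR-140 knockout cells and the other from wild-type cells. miR-140 is a microRNA, a short RNA that represses messenger RNAs, made at high level in cartilage. The allele, the number of mice behind each culture and the time in culture are not given in the sources used here.

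Each group has 1 array. No spread between cultures can be measured, so every difference below describes this pair of arrays, with no test and no replicate check. Values are log2 signals as deposited, and a difference is the knockout minus the wild-type signal, so that 1 is a 2-fold higher signal in the knockout array. A gene was read by its brightest probe set and compared if that reached a log2 signal of 7, the floor, in at least 1 array. Signals of different probe sets are not amounts that can be ranked against each other, so a member is described as above or under the floor.

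Metalloproteinases are made as inactive precursors whose propeptide covers the zinc in the active site. Other proteases or partner metalloproteinases remove the propeptide, and tissue inhibitors (TIMPs) block the active enzyme. In cartilage, collagenase cuts type II collagen, stromelysins cut proteoglycans and activate other members, and membrane-bound forms act at the cell surface. Several secreted members lie side by side in a gene cluster, and their promoters are known for AP-1 sites, the binding sites of FOS and JUN proteins, close to a TATA box.

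The only mature strand of miR-140 held by the RefSeq table (GRCm38.p6, chr8:107551288-107551308, plus strand) is shown because its gene is the one deleted. It is miR-140-3p, with the seed, bases 2 to 8, in capitals, and the other mature strand was not held. The arrays do not measure it. MMP13 has been proposed as a miR-140 target in human chondrocytes. Target sites of the mouse transcripts were not examined here, and the seed shown is not linked here to that proposal.
miR-140-3p: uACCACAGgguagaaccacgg

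RefSeq promoters, 250 bases before to 50 after a transcript start, were held for 6 of the 10 members. Those of Mmp13, Mmp3 and Mmp10 are shown because these neighbours on chromosome 9 are the collagenase and stromelysins of the group and share both motifs below. Capitals mark TGACTCA (the AP-1 site, written TGAGTCA when it lies on the other strand) and TATAAA (the TATA box, written TTTATA when it lies on the other strand), both searched on both strands. No 2 matches overlap. The windows lie on the plus strand of GRCm38.p6, at chr9:7272264-7272563 for Mmp13, chr9:7445572-7445871 for Mmp3 and chr9:7502092-7502391 for Mmp10.
Mmp13: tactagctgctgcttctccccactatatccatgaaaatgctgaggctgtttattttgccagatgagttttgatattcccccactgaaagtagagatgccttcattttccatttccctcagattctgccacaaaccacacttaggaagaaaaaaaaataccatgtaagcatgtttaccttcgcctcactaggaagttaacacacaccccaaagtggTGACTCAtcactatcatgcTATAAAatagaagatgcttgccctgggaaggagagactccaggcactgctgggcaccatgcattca
Mmp3: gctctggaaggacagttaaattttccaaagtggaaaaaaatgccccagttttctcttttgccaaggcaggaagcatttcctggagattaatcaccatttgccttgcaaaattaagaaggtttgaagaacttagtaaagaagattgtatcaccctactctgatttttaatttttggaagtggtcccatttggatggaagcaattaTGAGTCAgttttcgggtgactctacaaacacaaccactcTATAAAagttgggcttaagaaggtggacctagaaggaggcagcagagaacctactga
Mmp10: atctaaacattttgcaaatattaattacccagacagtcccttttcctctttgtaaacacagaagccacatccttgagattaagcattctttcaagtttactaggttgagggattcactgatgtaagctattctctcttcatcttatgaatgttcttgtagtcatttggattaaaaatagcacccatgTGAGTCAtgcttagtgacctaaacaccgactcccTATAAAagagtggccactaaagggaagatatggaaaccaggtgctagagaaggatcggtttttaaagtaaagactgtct

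The AP-1 letters began 35 bases before the listed start in Mmp13, 46 bases before it in Mmp3 and 63 bases before it in Mmp10. TATAAA began 16, 7 and 29 bases before the start in the same order. Of 32851 promoters of this length in the table, 5.20% held the AP-1 letters, 13.6% held TATAAA on either strand and 0.941% held both. Neither motif was in the windows of the other 3 members with an entry, Mmp11, Mmp14 and Mmp23. A match shows only that these letters stand in the window, and no binding was measured.

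The chosen probe sets of 8 members (Mmp2, Mmp3, Mmp10, Mmp11, Mmp13, Mmp14, Mmp16 and Mmp23) reached the floor, as did 54.4% of all genes. Mmp9 and Mmp19 stayed under it on both arrays. Of the 8 members, 6 had higher signal in the knockout array and 2, Mmp10 and Mmp16, had lower signal by their brightest probe set. The other Mmp16 probe set above the floor read higher (0.29), and Mmp10 lay at the floor. Among all 9897 genes compared, 40.0% were higher and 59.2% lower. The median difference of the 8 members was 0.35, a 1.27-fold higher signal, and that of all genes compared was -0.05, with the central 95% of genes between -0.69 and 0.47. Mmp3 was at least 2-fold higher, as were 0.475% of all genes. Mmp3 and Mmp13 were the 2 members at least 1.5-fold higher, a size reached by 1.56% of all genes. No member was 2-fold lower, against 1.22% of all genes.

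Cell markers differed between the same arrays. All 7 chondrocyte markers above the floor, out of 8 listed, were lower in the knockout array, by unequal sizes. The sum over the 8 of their signals on a linear scale was 9070 in the knockout and 33700 in the wild type (26.9%). Col2a1, Col9a1 and Acan, the brightest of the list in the wild type, make up most of that sum, so it says little of the dimmer markers. Acan, the aggrecan core protein, read 7.99 in the knockout and 12.02 in the wild type, while Sox9, the main transcription factor of chondrocytes, read 7.78 and 8.96. Sox6 stood at -0.49 and Sox5 at -0.07, and the probe sets of Sox5 above the floor ranged from -0.69 to -0.07. Of 10 fibroblast and perichondrium markers above the floor, out of 11 listed, 8 were higher, with a median of 0.38. The lower ones were Postn (-1.26) and Dcn (-0.17), and Thy1 was under the floor. The summed signal of the 11 was 25100 in the knockout against 19200 in the wild type (131%). Such sums, here and below, weigh the brightest probe sets most and are not amounts of RNA. Among all genes compared, 40.0% were higher and 59.2% lower. Xist and 3 Y-linked genes also went opposite ways, with Xist at 10.60 in the knockout and 7.01 in the wild type and Eif2s3y at 4.18 and 8.86. In bulk RNA, a different number of cells of a type and a different amount of RNA per cell cannot be told apart. The part of cell make-up or of sex in the differences below was not tested.

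**Figure D1:**
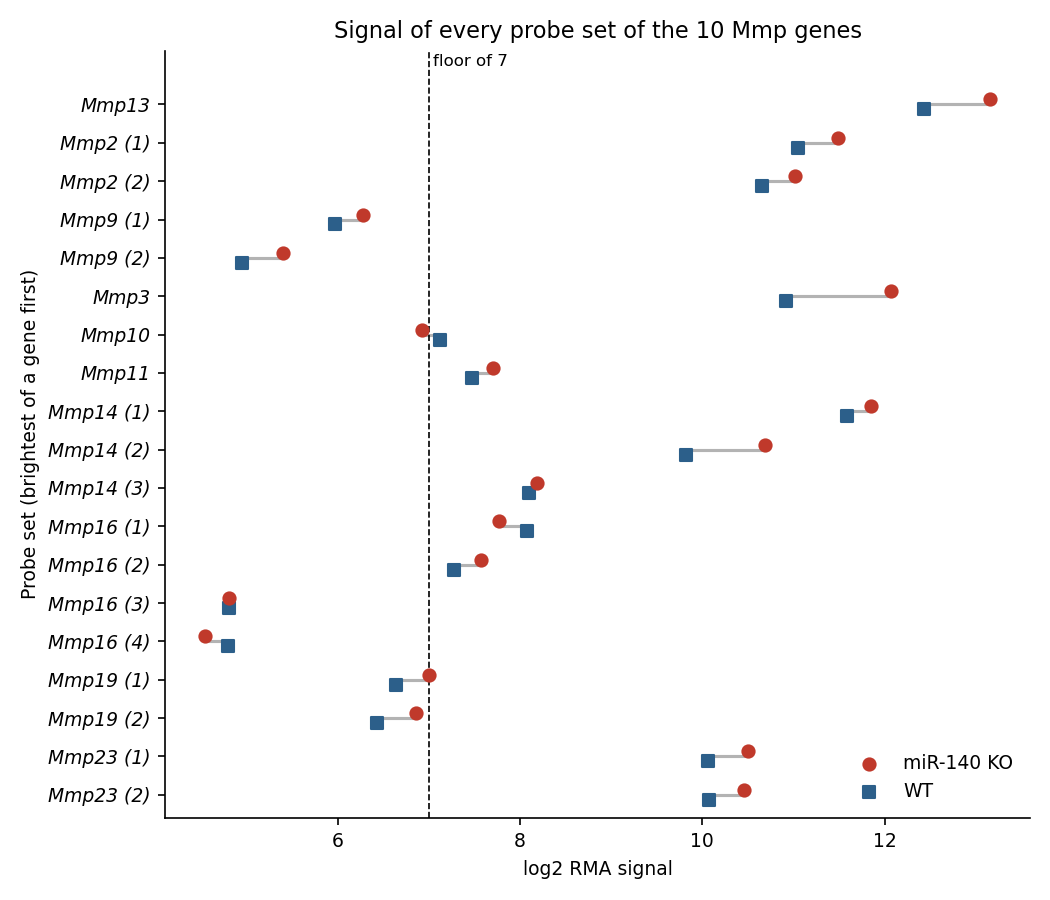
Log2 RMA signal (x axis) of each of the 19 probe sets of the 10 genes (y axis), with the miR-140 KO array as circles, the WT array as squares and the floor of 7 as a dashed line. Mmp13, Mmp2, Mmp3 and Mmp23 lie above 10 on both arrays, and both probe sets of Mmp9 and of Mmp19 lie under the floor.

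Mmp13 is the interstitial collagenase of mouse cartilage and is also made by hypertrophic chondrocytes. Its single probe set (1417256_at) read 13.16 in the knockout array and 12.43 in the wild-type array, a difference of 0.73 (1.66-fold higher). Both values were far above the floor. Only 100 of the 9897 genes compared (1.01%) had a larger positive difference. Col10a1, the collagen of hypertrophic chondrocytes, had lower signal in the knockout, at 5.69 against 7.41 in the wild type. Its knockout value lay under the floor and its wild-type value only a little above it, so the size of this difference is uncertain.

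Of the stromelysins, Mmp3 had the largest difference and Mmp10 lay at the floor. Mmp3, stromelysin-1, which cuts proteoglycans and activates other metalloproteinases, read 12.07 in the knockout and 10.92 in the wild type (1418945_at). The difference of 1.15 (2.23-fold higher) was the largest of the 8 members above the floor, and 30 genes (0.303%) exceeded it. Mmp10, stromelysin-2, whose sequence is close to that of Mmp3, read 6.93 in the knockout and 7.12 in the wild type (1420450_at), a difference of -0.19. These values lie on both sides of the floor and are not read as a difference. Mmp11, stromelysin-3, an enzyme associated with fibroblasts of remodelling tissue, read 7.70 in the knockout and 7.48 in the wild type (1417234_at), a difference of 0.23. Both of its values were a little above the floor, and 10.3% of genes had a larger positive difference. Each of these 3 genes has 1 probe set, so no second reading exists.

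The gelatinases cut denatured collagen and basement membrane collagen. Mmp2, gelatinase A, is widely made by mesenchymal cells and is activated by Mmp14 at the cell surface. Its brightest probe set (1439364_a_at) read 11.49 in the knockout and 11.05 in the wild type, a difference of 0.44 (1.36-fold higher). The other probe set (1416136_at) read 11.01 in the knockout and 10.66 in the wild type, a difference of 0.36. Both readings of Mmp2 were thus higher by a similar size, and 2.83% of genes exceeded the brighter one.

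Mmp9, gelatinase B, is typical of osteoclasts, neutrophils and macrophages and acts at the growth plate. Its probe sets read 6.28 and 5.40 in the knockout array, against 5.97 and 4.95 in the wild-type array. Both were higher in the knockout, by 0.31 and 0.45, but all 4 values lay under the floor and are not read as a difference. Of 6 osteoclast markers 1 was above the floor, Ctsk, a collagen-cutting cathepsin that fibroblasts also make (10.18 in the knockout and 9.69 in the wild type). The osteoclast genes Calcr, at 4.09 and 4.31, and Dcstamp, at 6.33 and 6.51, were under it. Of 5 neutrophil markers 1 was above the floor, Elane, at 7.10 in the knockout and 7.13 in the wild type. Over all genes, 54.4% were above the floor. A link of these markers to the Mmp9 signal was not tested.

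The membrane-type members are anchored at the cell surface. Mmp14, also called MT1-MMP, cuts fibrillar collagen and activates Mmp2. Its brightest probe set (1448383_at) read 11.85 in the knockout and 11.59 in the wild type, a difference of 0.26 (1.20-fold higher). A second one (1416572_at) read 10.69 in the knockout and 9.82 in the wild type, a difference of 0.87 (1.83-fold higher). The third (1440920_at) read 8.19 in the knockout and 8.10 in the wild type, a difference of 0.09. All 3 readings of Mmp14 were higher in the knockout, but by unequal sizes, so the gene passes 1.5-fold on 1 probe set and not on the others.

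Mmp16, also called MT3-MMP, can activate Mmp2 as well. Its brightest probe set (1437568_at) read 7.77 in the knockout and 8.08 in the wild type, a difference of -0.31. Another one above the floor (1422626_at) read 7.57 in the knockout and 7.27 in the wild type, a difference of 0.29. The remaining ones lay under the floor, at 4.81 on both arrays and at 4.54 in the knockout against 4.80 in the wild type. The probe sets of Mmp16 disagree in sign, and the gene is given no direction here.

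Mmp23 is a membrane-anchored member that lacks the usual hemopexin domain. Its brightest probe set (1417282_at) read 10.50 in the knockout and 10.06 in the wild type, a difference of 0.43 (1.35-fold higher). The other (1417281_a_at) read 10.45 in the knockout and 10.07 in the wild type, a difference of 0.38. Both readings were higher by nearly the same size, and 2.93% of genes exceeded the chosen one. Mmp19 is a secreted member that cuts basement membrane proteins. Its probe sets read 6.998 and 6.86 in the knockout array, against 6.64 and 6.44 in the wild-type array. The brighter one thus missed the floor by a small margin, whereas Mmp10, at 7.12 in the wild type, passed it by a small margin.

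**Figure D2:**
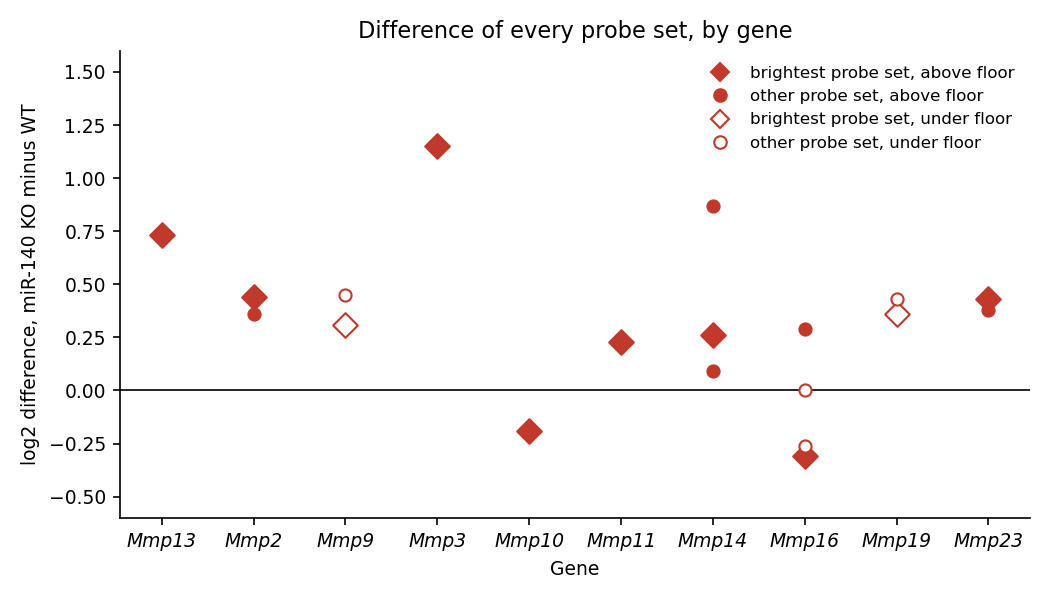
Log2 difference, miR-140 KO minus WT (y axis), of every probe set of each gene (x axis), with diamonds for the brightest probe set of a gene, circles for the others and open symbols where both arrays were under the floor. The probe sets of Mmp2, Mmp9, Mmp14, Mmp19 and Mmp23 all lie above 0, those of Mmp16 lie on both sides of it, and Mmp10 lies at -0.19.

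Counted over probe sets, 15 of the 19 read higher in the knockout array, 3 read lower and 1 was equal. Of these 19, 6 lay under the floor and are not read as differences. Of the 13 above the floor, 11 read higher. The share over all probe sets was not computed, and among all genes compared 40.0% read higher. Probe sets of 1 gene share the same RNA and are not replicates, but they show how far 2 readings of a gene can lie apart. Across the 3838 genes with at least 2 probe sets above the floor, the range of their differences had a median of 0.25 and a 90th percentile of 0.64. The range was 0.09 for Mmp2 and 0.05 for Mmp23, and 82.2% and 89.5% of those genes had a range at least as wide. It was 0.61 for Mmp16 and 0.78 for Mmp14, and 11.6% and 5.37% of those genes had one as wide. These ranges describe readings of the same RNA and say nothing of the spread between cultures.

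**Figure D3:**
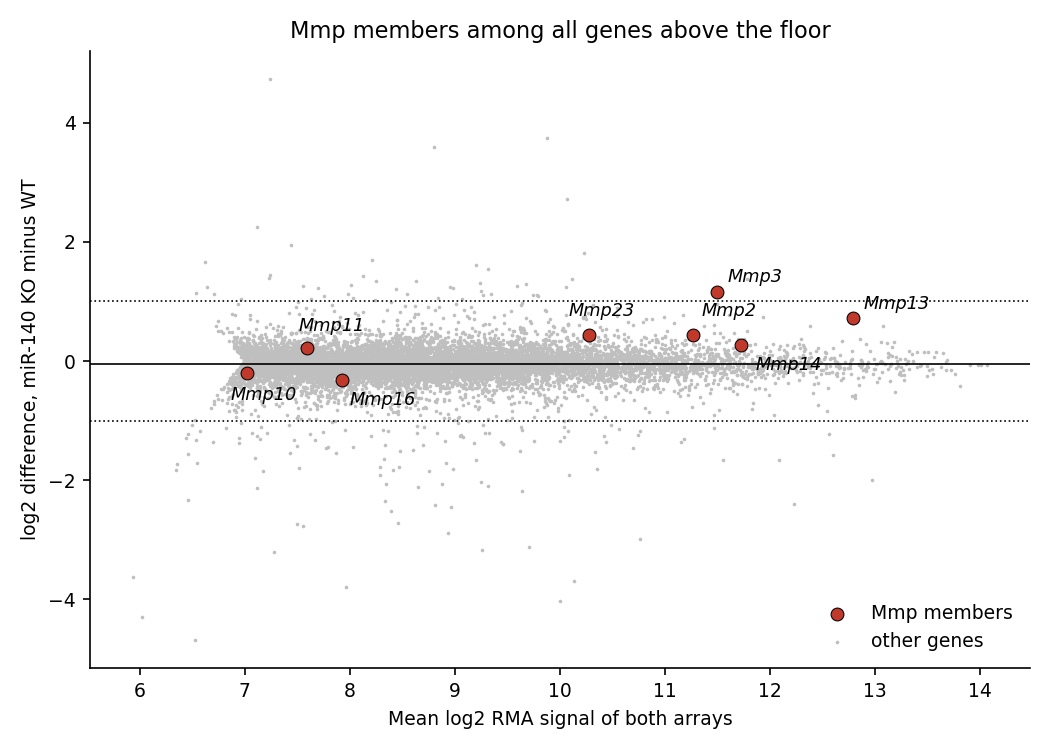
Log2 difference, miR-140 KO minus WT (y axis), against the mean log2 RMA signal of both arrays (x axis) for the 9897 genes above the floor, with the 8 Mmp members in red, dotted lines at a 2-fold difference and a solid line at the median of all genes (-0.05). Mmp3 lies above the upper dotted line at 1.15, Mmp13 lies below it at 0.73, and Mmp10 and Mmp16 lie under the median.

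The other members of the family were not seen above the floor. Of 13 further Mmp genes, 8 had a probe set named for them (Mmp1a, Mmp1b, Mmp7, Mmp8, Mmp12, Mmp17, Mmp20 and Mmp24) and none of the 8 reached the floor. Their brightest signals ran from 3.91 to 6.98 in the knockout array and from 3.80 to 6.93 in the wild-type array. Mmp12, the macrophage elastase, read 6.39 in the knockout and 5.39 in the wild type, just short of a 2-fold difference and with both values under the floor. Of 6 macrophage and leukocyte markers, 4 were above the floor, 2 higher and 2 lower, with a median of 0.00 and a summed signal of 843 in the knockout against 811 in the wild type. The pan-leukocyte gene Ptprc read 4.52 in the knockout and 4.32 in the wild type. Of the 18 Mmp genes with a probe set, 8 were therefore detected by this criterion, against 54.4% of all genes. All 8 are among the 10 described here. These 10 were chosen with earlier results of these data known, so this split may follow from that choice and is not read as a result.

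Mmp13, Mmp3 and Mmp10 belong to a run of 10 Mmp genes on chromosome 9 with no other protein-coding gene between them in the RefSeq table. The order is Mmp13, Mmp12, Mmp1b, Mmp3, Mmp1a, Mmp10, Mmp8, Mmp27, Mmp20 and Mmp7. Of the 9 with a probe set, 3 reached the floor, and they are separated by genes under it. Mmp1b and Mmp1a, mouse relatives of human interstitial collagenase on either side of Mmp3, read 4.03 and 3.91 in the knockout array, against 4.13 and 3.80 in the wild-type array. All of these values lay far under the floor. Both AP-1 and TATA letters stood in 1 promoter window of 7 of the 10 cluster genes, Mmp13, Mmp12, Mmp1b, Mmp3, Mmp1a, Mmp10 and Mmp7. Mmp12 and Mmp7 also have a window with neither motif. Counted by window and not by gene, 0.941% of all promoters held both. Of the 8 Mmp genes with an entry on other chromosomes, 0 held the AP-1 letters. As only 5.20% of all promoters held them, a count of 0 in 8 genes is not read as a result. Of the 7 genes with both motifs, Mmp13 and Mmp3 lay above the floor on both arrays, Mmp10 did so on the wild-type array, and the other 4 lay under it.

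**Figure D4:**
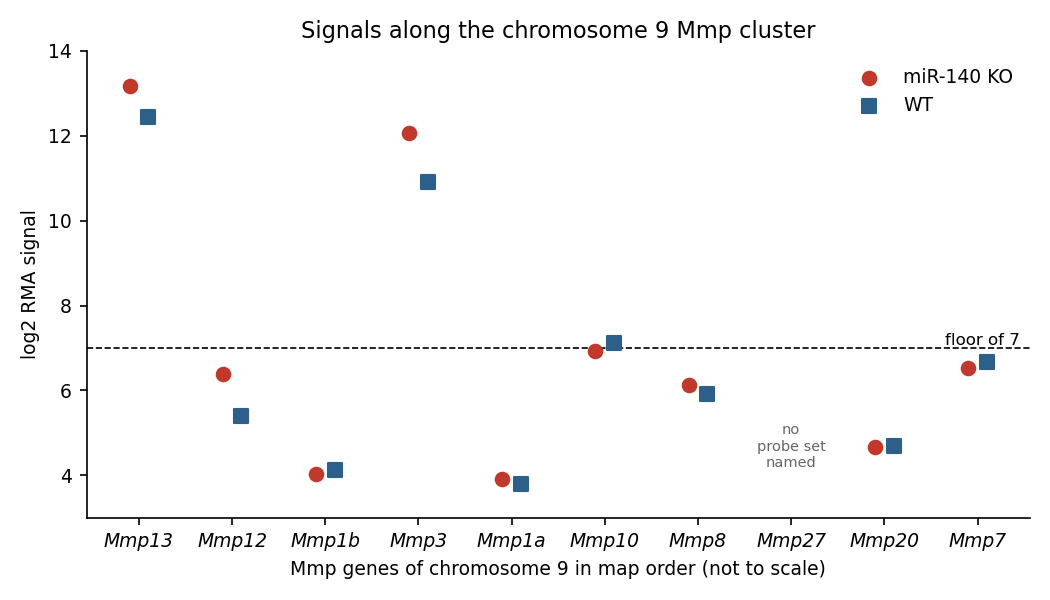
Log2 RMA signal (y axis) of the brightest probe set of each gene in the chromosome 9 Mmp cluster, in map order (x axis, not to scale), with the miR-140 KO array as circles, the WT array as squares and the floor of 7 as a dashed line. Mmp13 and Mmp3 stand above 10 on both arrays, Mmp10 is at the floor, and the other genes with a probe set lie under it.

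Genes that restrain, activate or induce metalloproteinases were counted in the same way. Of 6 inhibitors, 5 were above the floor, 2 higher and 3 lower in the knockout array, with a median of -0.79. A2m, alpha-2-macroglobulin, which traps proteases, read 7.40 in the knockout and 9.17 in the wild type, a difference of -1.77. Timp3, the matrix-bound TIMP, read 12.13 in the knockout and 12.96 in the wild type (-0.83), and its 4 probe sets differed by -0.85 to -0.20. Reck, a membrane-anchored inhibitor of Mmp2, Mmp9 and Mmp14, read 10.42 in the knockout and 11.21 in the wild type (-0.79). Timp2, which both inhibits Mmp2 and helps Mmp14 to activate it, read 13.66 in the knockout and 13.50 in the wild type (0.15). Timp4 was under the floor. Of the inhibitors above the floor, 3 read lower and 2, Timp1 and Timp2, stood at 0.06 and 0.15. Among all genes compared 59.2% read lower, so this count is not read as a result about inhibitors.

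Of 10 genes of activation and clearance with a probe set, 8 were above the floor, 2 higher and 6 lower, with a median of -0.13. Pcsk6, a proprotein convertase that can remove propeptides, read 9.64 in the knockout and 10.28 in the wild type (-0.65). Sdc4, a syndecan of the cell surface, stood at -0.47, but its 2 probe sets ranged from -0.47 to 0.11. Plat, a plasminogen activator, stood at 0.37, and Furin, the convertase that activates Mmp14 and Mmp11, at -0.21. Plau and Plg were under the floor.

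Of 15 transcription factors that act on metalloproteinase genes, 12 were above the floor, 3 higher, 8 lower and 1 (Elf3) at a difference of 0.00, with a median of -0.09. Among AP-1 genes, Fos read 7.58 in the knockout and 8.12 in the wild type (-0.54), and Junb read 7.28 and 7.67 (-0.39). Fosl2 (0.18) and Jun (0.10) read higher on both of their probe sets, and Fosl1 and Jund stood at -0.11 and -0.15. Ets1 stood at -0.45, and its 2 probe sets above the floor both read lower. Cebpb stood at -0.19. Fosb was under the floor, and Runx2 and Nfkb1 were not named here.

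Of 10 cytokines and receptors that induce metalloproteinases, 6 were above the floor, 1 higher and 5 lower, with a median of -0.34. Fgfr1, a fibroblast growth factor receptor, stood at -0.44, Osmr, the oncostatin M receptor, at -0.39, and Il6 at -0.38. Il6st, the shared receptor chain of the IL-6 family, stood at -0.29, but its 4 probe sets ranged from -0.29 to 1.09, and those of Osmr from -0.39 to 0.05. Il1a, Il1b, Tnf and Fgf2 were under the floor. All of these counts of lower genes stand beside the 59.2% of all genes that read lower.

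All 10 of the listed matrix substrates were above the floor, 2 higher and 8 lower, with a median of -1.0. Over all genes 54.4% were above the floor, and 59.2% of those compared read lower. Acan stood at -4.03. Col2a1, the type II collagen that Mmp13 cuts, read 11.98 in the knockout and 13.98 in the wild type (-2.00). Comp, a cartilage glycoprotein, stood at -1.67, and Col10a1 at -1.72. Col10a1 passed the floor only through its wild-type value, so it could count only as lower. Col1a1 and Col3a1, fibrillar collagens of fibrous tissue, were the 2 higher ones, at 0.28 and 1.38. Their probe sets ranged from 0.28 to 0.86 for Col1a1 and from 1.38 to 1.56 for Col3a1. Several of these genes also serve as cell markers above, so the lists are not independent.

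**Figure D5:**
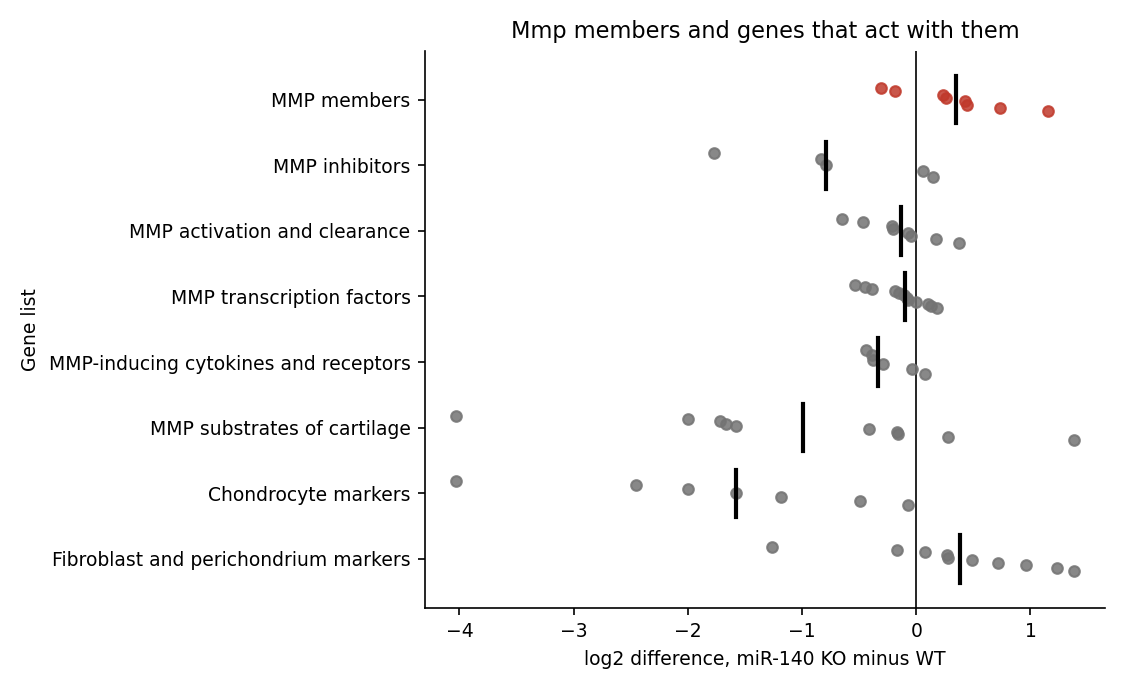
Log2 difference, miR-140 KO minus WT (x axis), of each gene above the floor in the Mmp members and in 7 other lists (y axis), with a black bar at the median of a list. The median is 0.35 for the members and 0.38 for the fibroblast and perichondrium markers, and it lies under 0 for the other lists, down to -1.58 for the chondrocyte markers.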

How the data were processed

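Total RNA of cultured rib chondrocytes was labelled with biotin and hybridised to Affymetrix Mouse Genome 430 2.0 arrays, per the labels' protocols. The deposited values are log2 signals that the authors summarised with RMA (Robust Multichip Average), as the labels' design text states, in Affymetrix Expression Console 1.1, per the submitters' processing notes. No source names the scale, and log2 was taken from their span of 3.24 to 14.2. RMA gives the arrays a common distribution, so a difference shared by most genes is removed, and it compresses differences of dim probe sets. The sorted values of the arrays differed by at most 0.157.

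Of 45101 probe sets, 34945 had a single gene symbol in the platform annotation, whose symbols for the 10 members matched RefSeq (GRCm38.p6) by Entrez identifier. A gene was read by its brightest probe set, by the mean of its 2 values. The floor of 7 was a fixed choice and was not derived from a measure of background. It lies above the median signal of all probe sets, 6.30 in the knockout array and 6.29 in the wild-type array. A gene under it is therefore not shown to be absent. All values came from Python 3.11.15 with pandas 2.3.3, and lowess from statsmodels 0.14.6. The gene summary was run on simulated arrays with known differences added, which checks only that the code returns them. That run does not test the choice of floor, the member counts or the spread between cultures. With 1 array per group there is no test, and precision is limited by the number of arrays.

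The members and lists were chosen with earlier results of these data known. All members were named. The plan was to give from each other list at most 4 genes with the largest differences above the floor, but several lists exceed it. Genes that were singled out as markers, substrates or neighbours were chosen after their values were seen. With 2 arrays, likeness of pattern between genes cannot be measured. The alternatives tried were other floors (none, 6 or 8), averaging a gene's probe sets, probe sets of 1 transcript (no _s_at, _x_at or _a_at), 3 scalings, low values raised to 7, and a 1.5-fold threshold.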

Additional observations from a re-analysis of the deposited data

How the results depend on the processing

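The number of members above the floor was 8 as reported and ranged from 6 (floor of 8) to 10 (floor of 6, and no floor). The members with higher signal numbered from 5 of 6 (floor of 8) to 8 of 10 (floor of 6, and no floor). The share of all genes compared that read higher ran from 39.3% to 45.7%. The median difference of the members above the floor ran from 0.31 with probe sets of 1 transcript to 0.44 with a floor of 8. Over all genes compared, the median ran from -0.05 to -0.02 in these settings. With a 1.5-fold threshold in place of 2-fold, the count of members was 2 (Mmp3 and Mmp13) in place of 1 (Mmp3). No member took the opposite sign in any of the 9 settings run for it, but several settings could not change a sign. A floor does not alter the difference of a gene, and averaging leaves a gene with 1 probe set, such as Mmp3 or Mmp13, as it was. Mmp9 and Mmp19 were at 0.00 when low values were raised to 7, and Mmp16 shrank to -0.07 with the mean of its probe sets. Mmp3 stayed between 1.15 and 1.19, Mmp13 between 0.73 and 0.78, and Mmp14 between 0.26 and 0.41. No replicate could be left out, and no paired analysis was possible because each group has 1 array. Signal under the floor or only a little above it limits Mmp10, Mmp11, Mmp9 and Mmp19.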
